A study of Mus musculus with 6 samples.

Results

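The cadherin superfamily and the catenins make up 35 of the 9490 genes tested on arrays of prostate cancer stem-like cells, which were grown from TRAMP mice. They are the genes whose symbol in the array's annotation starts with Cdh and a number, with Pcdh or with Ctnn, or is one of Fat1 to Fat4, Dchs1, Dchs2 and Celsr1 to Celsr3, with Cdh5 left out. Of 109 protein-coding mouse genes with such symbols in the RefSeq table, 35 had a row of their own here: 5 cadherins, 3 catenins, 3 Fat genes, 1 Dachsous gene, 1 Celsr gene, 8 protocadherins outside the gene clusters and 14 of the 22 genes of the beta protocadherin cluster. The other 74 were not analysed here, among them Cdh1 (E-cadherin) and Ctnnb1 (beta-catenin), so an exchange that involves E-cadherin cannot be read from these values.

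All 6 samples came from TRAMP mice, in which a viral oncogene under a prostate promoter drives tumours of the prostate epithelium, and no sample came from mice without the transgene. TPIN cells (3 arrays) were taken at an age of 10 to 11 weeks, the stage that the title abbreviates as PIN. TNE cells (3 arrays) were taken from mice with neuroendocrine tumours, at an age that the labels leave out. Every culture grew in serum-free medium to which EGF and FGF2 were added. The free-text descriptions name intraepithelial neoplasia for all 6 samples, so the groups follow the titles and the cell type labels. Each sample title ends in a number of its own, but no label ties a sample to a mouse or a culture of its own. The p-values therefore do no more than set a group difference against the spread between samples of a group, and that spread may be technical. The values are log2 expression on the RMA scale, and a difference is TNE minus TPIN. A gene "rose" or "fell" in TNE where limma's two-sided test, adjusted by Benjamini and Hochberg over all 9490 genes, gave p under 0.05. A level cannot be compared between genes, since each has its own probes.

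Over all genes, pairs of TPIN arrays correlated at 0.842 to 0.905, pairs of TNE arrays at 0.825 to 0.917 and mixed pairs at 0.549 to 0.733. The label of prostate epithelium could be checked on 2 of 23 epithelial markers only, Krt8 and Krt18. Krt18 was at 8.27 ± 0.14 in TPIN and 7.60 ± 0.15 in TNE, and Krt8 at 7.92 ± 0.06 and 7.59 ± 0.26 (mean ± SD, n = 3 per group). Neither passed (adjusted p = 0.0967 for Krt18 and 0.378 for Krt8 in limma). For both, every TNE array lay below every TPIN array, as in 20.5% of all genes. Of 10 measured neuroendocrine and neuronal markers 4 rose, or 40% against 10.3% of all genes, and none fell. The mean of the 10 per array was 7.46 to 7.87 in TPIN against 8.69 to 10.23 in TNE. Leaving out TPIN replicate 1 cut the number that rose to 2 and leaving out TPIN replicate 2 to 1. The 4 were Uchl1, Syt1, Elavl4 and Snap25, and of these Uchl1 kept its call without any array. Of the 10 differences 9 were positive and 1 negative. The negative one was that of Eno2, at 10.02 ± 0.27 in TPIN and 9.23 ± 0.43 in TNE, where all TNE arrays were lower (limma adjusted p = 0.110). Ncam1 had a difference of 0.04 (limma adjusted p = 0.963).

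Cadherins are membrane proteins that bind cadherins of neighbouring cells in the presence of calcium. The tail of a classical cadherin holds p120-catenin and beta-catenin, and beta-catenin binds alpha-catenin, which reaches actin. Epithelial cells that take on a mesenchymal state commonly exchange E-cadherin for N-cadherin or cadherin-11. Fat and Dachsous proteins are giant cadherins that bind each other across cells and feed into tissue polarity and the Hippo pathway. Clustered protocadherins are expressed in random combinations by neurons, through promoters that bind CTCF, and give each neuron a surface identity.

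Promoter letters are shown for the members with a changed level whose start site the RefSeq promoter table (build GRCm38.p6) holds. It had entries for 14 of the 35 genes, and of those that changed only for Pcdh7, Fat1 and Celsr2. Each run below is the 250 bases before the annotated start, 5′ to 3′, and capitals mark the E-box CACCTG or its reverse complement CAGGTG, the letters that factors of the Snail and Zeb families bind. The first run belongs to a gene that fell 12-fold, the second to one that fell 7.16-fold and the third to one that rose.
Pcdh7 promoter, chr5:57717831-57718080, plus strand: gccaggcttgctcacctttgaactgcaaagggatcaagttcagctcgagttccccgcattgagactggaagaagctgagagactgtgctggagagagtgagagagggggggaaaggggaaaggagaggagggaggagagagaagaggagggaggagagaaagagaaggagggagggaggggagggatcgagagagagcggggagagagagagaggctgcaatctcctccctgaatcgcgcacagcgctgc
Fat1 promoter, chr8:44949958-44950207, plus strand: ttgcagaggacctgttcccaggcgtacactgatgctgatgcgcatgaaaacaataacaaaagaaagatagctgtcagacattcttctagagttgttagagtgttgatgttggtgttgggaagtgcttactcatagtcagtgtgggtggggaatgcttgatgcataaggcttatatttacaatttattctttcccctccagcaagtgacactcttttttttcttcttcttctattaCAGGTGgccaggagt
Celsr2 promoter, chr3:108415580-108415829, minus strand: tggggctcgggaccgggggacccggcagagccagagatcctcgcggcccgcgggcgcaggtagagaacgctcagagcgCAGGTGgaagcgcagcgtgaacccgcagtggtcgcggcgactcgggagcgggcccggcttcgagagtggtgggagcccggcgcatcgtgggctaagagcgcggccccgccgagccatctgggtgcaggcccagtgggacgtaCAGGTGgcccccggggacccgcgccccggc
The E-box was found in 17.2% of 32851 annotated promoters of that length and in those of 4 of the 14 genes: Celsr2, with 2 copies, Fat1, Ctnna2 and Pcdh15. The Pcdh7 window held none. G and C made up 75.2% of the bases before Celsr2, 58.4% before Pcdh7 and 42.0% before Fat1, against a median of 52.4% over all promoters. The letters CG stood together 2 times in the Fat1 window, against a median of 6 over all promoters. Its E-box overlaps a CAG that follows a run of C and T, the pattern at the end of an intron. The annotated start used for Fat1 may thus lie inside the gene, and its E-box may be a splice site.

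Across the 35 genes, 4 fell in TNE (Pcdh7, Cdh11, Fat1 and Dchs1) and 7 rose (Cdh13, Celsr2, Pcdhb2, Pcdhb5, Pcdhb9, Pcdhb12 and Pcdhb16). The 4 that fell make up 11.4% of the members, and 10.2% of all genes tested fell, so that share is close to the background. The 7 that rose make up 20.0% of the members against 10.3% of all genes, and the 11 changed genes 31.4% against 20.5%. Without the beta protocadherin cluster, 2 of the other 21 genes rose, or 9.52%, and 4 fell, or 19%. The shares of the members thus depend on the beta cluster. Leaving out TPIN replicate 1 or TPIN replicate 2 cut the members that rose to 3, and leaving out TNE replicate 2 cut them to 2. Over all genes tested, the number that rose went from 976 to 386, 537 and 357 in these runs, in that order. Of the 7 that rose 6 lie among the dimmest genes (mean at or below 8.09). With those genes left out of the test 1 member rose, beside 866 of all 7117 genes left. The groups did not overlap for 15 of the 35 genes, or 42.9%, beside 43.8% of all genes. The median difference of the members was 0.36, against -0.02 over all genes tested. It was 0.47 for the beta protocadherins, of which 13 of 14 were positive, and -0.56 for the other 21 genes. The 4 genes that fell kept their calls under every alternative run, including each array left out.

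**Figure D1:**
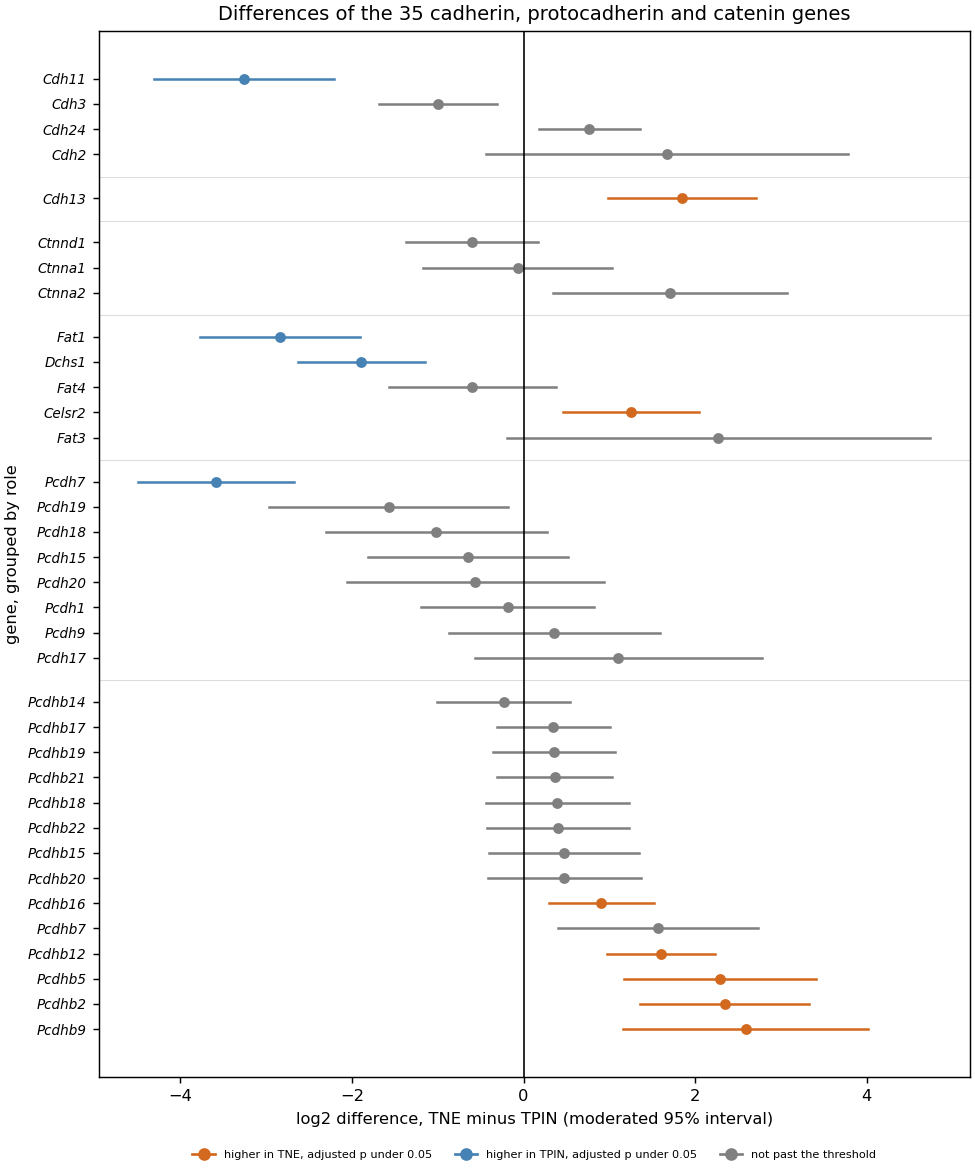
The log2 difference (TNE minus TPIN, x axis) of each of the 35 genes, grouped by role, with its moderated 95% interval from limma over 3 TPIN and 3 TNE arrays; colours mark the 4 genes higher in TPIN, the 7 higher in TNE and the 24 not past the threshold. Pcdh7 lies farthest to the left at -3.58, and 13 of the 14 beta protocadherins at the foot lie right of 0.

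Among the classical cadherins, Cdh11 fell in TNE and no other member passed the test. Cdh11 encodes cadherin-11, a type II cadherin of mesenchymal and bone-forming cells. It was at 12.93, 12.88 and 12.16 on TPIN arrays 1 to 3 and at 9.27, 10.28 and 8.65 on TNE arrays 1 to 3. Every TNE array lay below every TPIN array, a 9.57-fold lower level (log2 difference -3.26, SE 0.45, limma adjusted p = 0.00382), and Cdh11 had the 177th lowest difference of all genes tested. One more row names Cdh11 together with 2 uncharacterised transcripts and was left out by the rule on single symbols. That row was at 11.85, 12.34 and 12.20 in TPIN and 12.78, 11.97 and 12.29 in TNE, a difference of 0.22, so the rows that name Cdh11 disagree.

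Cdh11 fell on arrays on which fibroblast and smooth muscle markers were also lower. Of 15 measured markers of those cells 11 fell, or 73.3% against 10.2% of all genes. None of the markers rose, and all 15 had negative differences. Averaged per array they stood at 11.21 to 11.51 in TPIN against 7.65 to 8.49 in TNE, and among the brightest, Dcn (decorin) was at 13.72 ± 0.06 and 10.91 ± 0.24. The part of these markers in the fall of Cdh11, Fat1, Dchs1 and Pcdh7 was not tested, and in such bulk samples fewer cells of a type and less RNA per cell cannot be told apart.

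Cdh2 encodes N-cadherin, the type I cadherin of neural and mesenchymal cells. It was at 9.71, 10.38 and 6.42 on the TPIN arrays and at 10.50, 10.64 and 10.38 on the TNE arrays. TPIN replicate 3 stood far below the other 5 arrays, and the 2 other TPIN arrays came within 1 unit of the TNE arrays. The difference of 1.67 (95% interval -0.44 to 3.78) did not pass (limma adjusted p = 0.209), and without TPIN replicate 3 it was 0.46. The groups stopped short of overlap by less than 0.01, between TPIN replicate 2 and TNE replicate 3. TPIN replicate 3 was also the TPIN array with the lowest Cdh11 and the lowest Cdh3.

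Cdh3 encodes P-cadherin, found in basal epithelial cells of the prostate. Its values were 8.15, 7.92 and 7.43 in TPIN and 6.63, 6.84 and 7.05 in TNE. All TNE arrays were lower, by 0.99 on average, but the gene missed the threshold (95% interval -1.68 to -0.30, limma adjusted p = 0.0512) and passed it without TPIN replicate 3 (adjusted p = 0.0252). Cdh24, a type II cadherin that binds catenins, was at 7.96, 7.91 and 7.74 in TPIN and 8.79, 8.68 and 8.44 in TNE. All TNE arrays were higher, by 0.77, again short of the threshold (95% interval 0.17 to 1.36, limma adjusted p = 0.0680). With the arrays quantile-normalized once more Cdh24 passed (adjusted p = 0.0472). In all 4 classical cadherins the groups did not overlap, as in 43.8% of all genes, with Cdh11 and Cdh3 lower and Cdh2 and Cdh24 higher in TNE, and 3 of the 4 did not pass the test.

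Cdh13 rose in TNE. It encodes T-cadherin, which lacks a cytoplasmic tail and sits in the membrane by a lipid anchor, so it does not hold catenins. Its values were 7.09, 6.83 and 6.78 in TPIN and 9.02, 9.22 and 7.99 in TNE. TNE replicate 3 was the lowest of its group and still above all TPIN arrays. The gene was 3.59-fold higher (log2 difference 1.84, SE 0.37, limma adjusted p = 0.0139). Without TNE replicate 2 the difference was 1.60 and the call was lost (adjusted p = 0.0578).

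**Figure D2:**
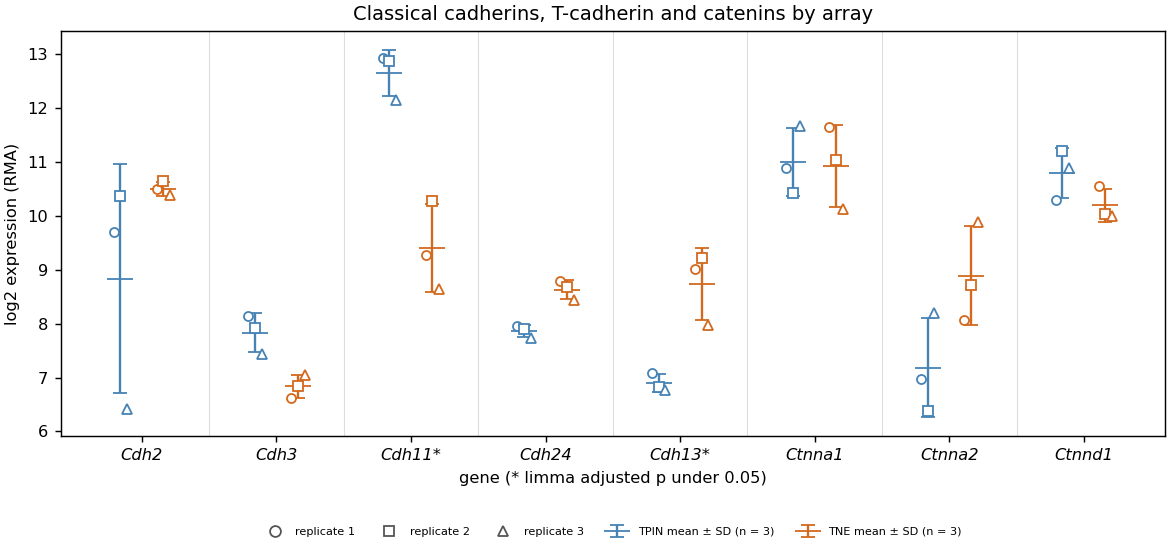
Log2 RMA expression (y axis) of the 4 classical cadherins, Cdh13 and the 3 catenins on each of 3 TPIN and 3 TNE arrays; symbols are replicates, horizontal marks and bars the mean ± SD, and levels should be compared within a gene only. Cdh11 is lower and Cdh13 higher on all 3 TNE arrays, and the wide TPIN bar of Cdh2 comes from replicate 3 at 6.42.

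No catenin passed the test. Ctnna1, the alpha-catenin of epithelial cells, was at 10.89, 10.44 and 11.68 in TPIN and 11.65, 11.03 and 10.12 in TNE. Its groups overlapped fully, with a difference of -0.07 (95% interval -1.17 to 1.03, limma adjusted p = 0.923) that turned positive once either group's replicate 3 was left out and with the arrays quantile-normalized again. Ctnnd1, or p120-catenin, which keeps cadherins at the surface, was at 10.30, 11.21 and 10.89 in TPIN and 10.55, 10.03 and 10.00 in TNE (difference -0.61, 95% interval -1.37 to 0.16, adjusted p = 0.211). Ctnna2, the alpha-catenin of neurons, was at 6.97, 6.39 and 8.20 in TPIN and 8.07, 8.72 and 9.88 in TNE. TPIN replicate 3 lay just above TNE replicate 1, and the difference of 1.71 (95% interval 0.34 to 3.07, limma adjusted p = 0.0744) passed once TPIN replicate 3 (adjusted p = 0.0368) or TNE replicate 1 (adjusted p = 0.0489) was left out.

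The giant cadherins moved in both directions. Fat1, which links cell contacts to actin and growth control, fell 7.16-fold in TNE. Its values were 11.28, 10.39 and 11.10 in TPIN and 7.95, 8.77 and 7.54 in TNE (log2 difference -2.84, SE 0.40, limma adjusted p = 0.00409). Dchs1, the Dachsous cadherin that pairs with Fat4, fell 3.71-fold. Its values were 11.19, 10.85 and 10.43 in TPIN and 8.93, 8.60 and 9.28 in TNE (log2 difference -1.89, SE 0.32, limma adjusted p = 0.00738). For both genes each TNE array was at least 1 unit below the lowest TPIN array. Fat4, the receptor for Dchs1, was at 9.78, 8.77 and 9.73 in TPIN and 8.82, 9.45 and 8.23 in TNE. Its groups overlapped, with a difference of -0.60 (95% interval -1.57 to 0.38, limma adjusted p = 0.320).

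Fat3, a Fat cadherin of the nervous system, varied widely between TNE arrays. It was at 4.53, 4.32 and 5.63 in TPIN and at 6.68, 4.92 and 9.68 in TNE, with replicate 3 far above the other TNE arrays and replicate 2 inside the TPIN range. Its difference of 2.27 (95% interval -0.19 to 4.74, limma adjusted p = 0.154) fell to 0.98 without TNE replicate 3. Celsr2, a 7-pass cadherin of planar cell polarity and neurons, rose 2.38-fold. Its values were 7.40, 7.04 and 7.00 in TPIN and 8.11, 8.06 and 9.03 in TNE (log2 difference 1.25, SE 0.34, limma adjusted p = 0.0388). All TNE arrays were higher, but any 1 array other than TNE replicate 1 ended the call when left out (adjusted p up to 0.111).

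Of the 8 protocadherins outside the clusters, Pcdh7 fell in TNE and the other 7 did not pass. Pcdh7 is a delta protocadherin that takes part in adhesion between cells and binds regulators of protein phosphatases. It was at 11.03, 10.68 and 11.12 in TPIN and 7.40, 8.05 and 6.64 in TNE. This was the largest difference among the 35 genes, 12-fold (log2 difference -3.58, SE 0.39, limma adjusted p = 0.00176), and the 124th lowest of all genes tested. Pcdh19, a delta protocadherin that acts together with N-cadherin in neurons, was at 10.13, 8.44 and 10.69 in TPIN and 8.89, 7.96 and 7.70 in TNE. TPIN replicate 2 fell inside the TNE range, and the difference of -1.57 (95% interval -2.96 to -0.18) had an adjusted p of 0.0951 in limma, which became 0.0241 without that array. Pcdh18 was at 10.05, 9.75 and 11.63 in TPIN and 10.17, 9.38 and 8.83 in TNE, with overlapping groups (difference -1.02, 95% interval -2.31 to 0.27, adjusted p = 0.211). Pcdh17, a protocadherin of axons, was at 8.99, 7.28 and 7.42 in TPIN and 9.57, 9.97 and 7.46 in TNE, and here TNE replicate 3 lay with the 2 lower TPIN arrays.

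The remaining 4 had differences between -0.65 (Pcdh15) and 0.36 (Pcdh9), with adjusted p of at least 0.362 in limma. In 2 of these a single TPIN array stood apart. Pcdh20 was at 8.48 on TPIN replicate 2 and between 5.96 and 6.32 on the other 5 arrays. Pcdh15, known from the hair cells of the inner ear, was at 8.20 on TPIN replicate 3 and between 6.14 and 6.81 elsewhere. The direction of Pcdh20 turned without TPIN replicate 2, that of Pcdh1 without TPIN replicate 1 and that of Pcdh9 without TPIN replicate 3.

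**Figure D3:**
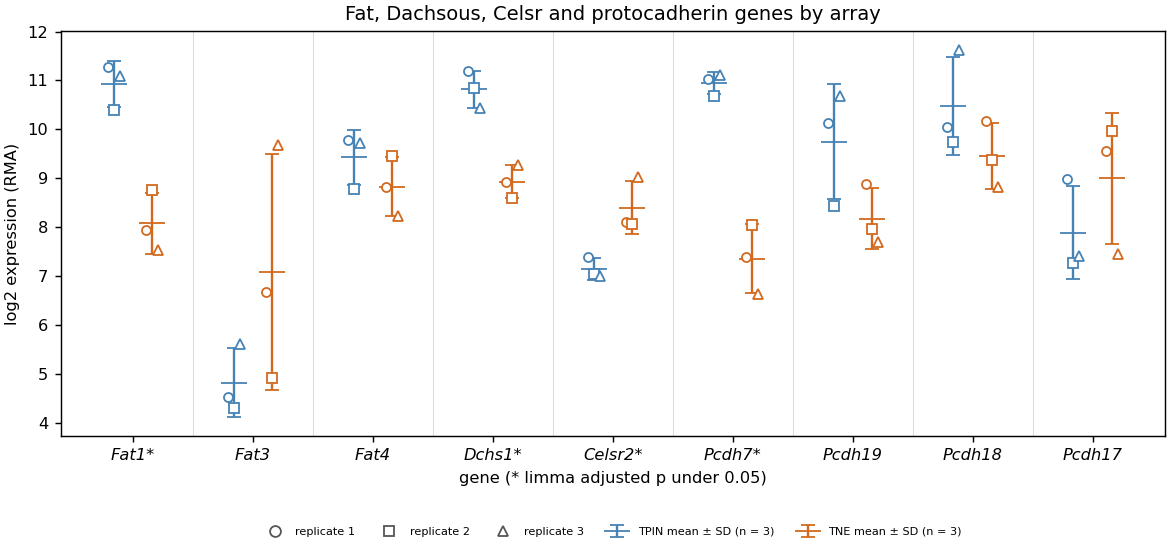
Log2 RMA expression (y axis) of Fat1, Fat3, Fat4, Dchs1, Celsr2 and 4 protocadherins on 3 TPIN and 3 TNE arrays; symbols are replicates, horizontal marks and bars the mean ± SD, and levels should be compared within a gene only. Fat1, Dchs1 and Pcdh7 separate the groups downward in TNE, Celsr2 upward, and Fat3 spreads from 4.92 to 9.68 within TNE.

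Among the beta protocadherins, neuronal adhesion proteins encoded side by side, Pcdhb2, Pcdhb5, Pcdhb9, Pcdhb12 and Pcdhb16 rose. Of the 14 measured genes of the cluster 5 rose, none fell and 9 did not pass, or 35.7% that rose against 10.3% of all genes. Averaged over the 14 genes, TPIN arrays 1 to 3 stood at 7.12, 7.06 and 7.12, and TNE arrays 1 to 3 at 7.72, 8.05 and 8.50. The 10 neuroendocrine and neuronal markers, averaged the same way, stood at 7.87, 7.46 and 7.73 on the TPIN arrays in that order and at 8.69, 9.25 and 10.23 on the TNE arrays. The part of those markers in the level of the beta protocadherins was not tested. These genes are near copies of each other that lie in a tandem row, so probes of one may bind transcripts of another, and they do not count as independent measurements.

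Along the cluster, the differences were larger at the side of the low numbers. In the RefSeq table the 22 genes run in the order of their numbers. The first 5 measured genes in that order, Pcdhb2, Pcdhb5, Pcdhb7, Pcdhb9 and Pcdhb12, had differences of 2.34, 2.29, 1.56, 2.59 and 1.60. The other 9, from Pcdhb14 to Pcdhb22, lay between -0.23 and 0.47 apart from Pcdhb16, at 0.91. The first 5 all lie among the dimmest genes, as do some of the other 9. Their TPIN means were 4.04 to 6.72, against 6.87 to 8.85 for the other 9. This split was seen in the values, and neither it nor the part of low signal in it was tested.

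Pcdhb2 was at 6.99, 6.12 and 6.48 in TPIN and 8.43, 8.48 and 9.72 in TNE, 5.08-fold higher (SE 0.43, limma adjusted p = 0.00960). Pcdhb12 was at 6.15, 6.21 and 5.79 in TPIN and 7.43, 7.67 and 7.86 in TNE, 3.03-fold higher (SE 0.27, adjusted p = 0.00780 in limma). These 2 were the beta genes that passed without any single array. Pcdhb9 was at 3.96, 3.99 and 4.17 in TPIN and 5.42, 6.35 and 8.11 in TNE, 6.01-fold higher with a wide spread in TNE (SE 0.62, limma adjusted p = 0.0251). Its mean over all arrays lay at percentile 0.96 of all genes tested, so the fold is taken against very dim values. Pcdhb5 was at 6.85, 6.37 and 6.94 in TPIN and 7.91, 9.40 and 9.72 in TNE, 4.89-fold higher (SE 0.48, limma adjusted p = 0.0163). TNE replicate 1 was the lowest TNE array for both, yet above all TPIN arrays. The call of Pcdhb9 was lost without any 1 of the TPIN arrays or TNE replicate 2 (adjusted p up to 0.0822), and that of Pcdhb5 with replicate 1 or 2 of TPIN or replicate 2 of TNE left out (up to 0.0647).

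Pcdhb16 was at 9.01, 8.88 and 8.65 in TPIN and 9.88, 9.52 and 9.86 in TNE. Its 1.87-fold rise (limma adjusted p = 0.0479) was lost whichever array was left out (adjusted p 0.0591 to 0.118). Pcdhb7 was at 6.33, 5.87 and 6.20 in TPIN and 6.53, 8.55 and 8.00 in TNE, where replicate 1 came close to the TPIN arrays. It did not pass (limma adjusted p = 0.0620) and did so without TNE replicate 1 (adjusted p = 0.00884). Pcdhb14 had the one negative difference, with 6.47, 7.43 and 6.70 in TPIN and 6.44, 6.93 and 6.55 in TNE. It turned to 0.05 without TPIN replicate 2.

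**Figure D4:**
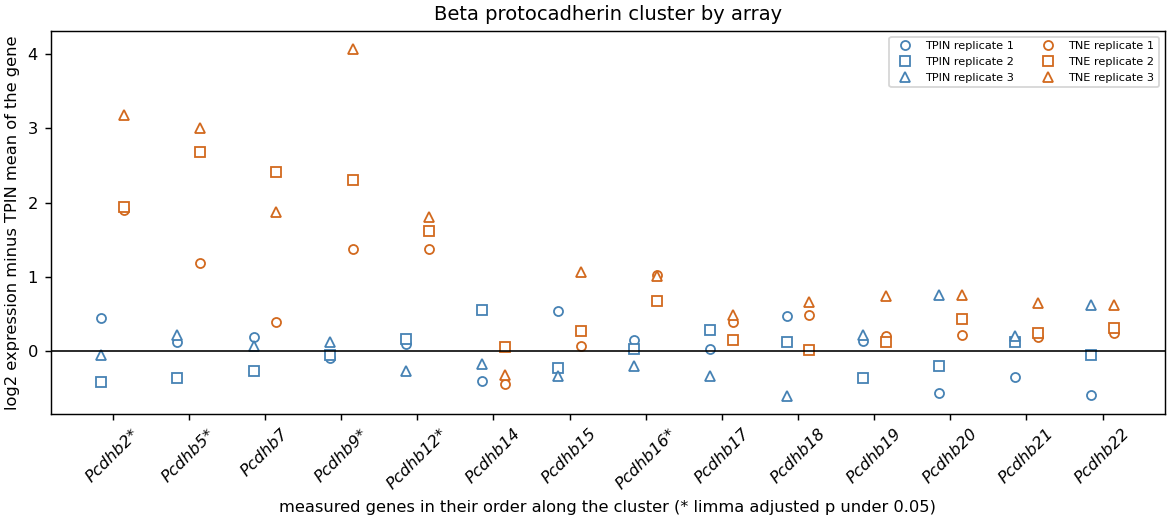
Log2 RMA expression of the 14 measured beta protocadherins minus each gene's TPIN mean (y axis), in their order along the cluster (x axis), for 3 TPIN and 3 TNE arrays; asterisks mark the 5 genes past the threshold. TNE arrays lie highest above 0 at Pcdhb2 to Pcdhb12, with TNE replicate 1 the lowest TNE array at each of these 5 genes.

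The spread between arrays differed by group and gene. Over the 35 genes, TNE replicate 3 was the highest array for 14 and the lowest for 8, and TPIN replicate 3 the lowest for 12. Within a group, the array farthest from its group's median was TPIN replicate 3 for 17 genes and TNE replicate 3 for 17. The TPIN arrays ranged over more than 2 units for 3 genes and the TNE arrays for 4.

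Partners of the cadherins were taken from 10 lists, chosen with earlier results of these data known. Of 25 measured genes that join cadherins to actin or stand in the adherens junction, 3 rose, 2 fell and 20 did not pass, with a median difference of -0.34. Those that passed made up 20%, close to the 20.5% of all genes. Lima1 (an actin-bundling protein of the cadherin complex) fell 6.49-fold (limma adjusted p = 0.00124) and Lpp, a zyxin-related protein, 4.93-fold (adjusted p = 0.0110 in limma). Afdn (afadin, which ties nectins to actin), Ablim1 and Arvcf, a p120-related catenin not matched by the symbol rule, rose 2.35-fold, 2.16-fold and 1.95-fold. These 3 calls were each lost without any 1 array other than TPIN replicate 3 (adjusted p up to 0.144 in limma). With TPIN replicate 3 left out 4 fell, and with TNE replicate 1 left out 5 did.

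Of 5 desmosomal genes none passed adjustment in limma, and 1 had an unadjusted p under 0.05. Dsc2 (desmocollin-2) had a difference of 1.61, and Jup (plakoglobin, the gamma-catenin), chosen after its values were seen, 0.02. Without TNE replicate 3, 2 of the 5 rose. In a list of 4 cadherin superfamily genes outside the members, which holds Dsc2 again, Clstn2, a calsyntenin of synapses, fell 9.29-fold (limma adjusted p = 0.00438). The other 3 did not pass. Clstn2 was at 9.65 ± 0.95 in TPIN and 6.44 ± 0.16 in TNE. Without TNE replicate 3, 1 of the 4 rose, which was Dsc2, already counted among the desmosomal genes.

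Of 12 measured factors tied to the repression of E-cadherin 6 fell, none rose and 6 did not pass, or 50% that fell against 10.2% of all genes. The median difference was -1.11, with 10 negative and 2 positive differences, on arrays with a fibroblast marker mean of at least 11.21 in TPIN and at most 8.49 in TNE. Prrx1, a mesenchymal homeobox factor, fell 38.9-fold, Snai2 (Slug) 17.0-fold, Twist2 11.2-fold and Foxc2 3.11-fold (limma adjusted p from 0.000211 to 0.0110). Zeb1 and Snai1, named after their values were seen, fell 2.77-fold and 3.89-fold. Snai1 lost its call without any 1 array other than TPIN replicate 3 (adjusted p up to 0.129 in limma), and Foxc2 and Zeb1 without TNE replicate 2 (adjusted p = 0.0521 and 0.0621 in limma), so that the count was 3 without TNE replicate 2. Of 17 measured genes of proteases that cut cadherins, of their subunits or of enzymes that activate them, 6 fell, none rose and 11 did not pass. The share that fell was 35.3%, against 10.2% of all genes. In order of their p-values the 6 were Mmp14 (11.1-fold), Mmp2 (22.7-fold), Adam19 (3.76-fold), Furin (3.61-fold) and, named after their values were seen, Mmp3 (10.8-fold) and Ncstn (2.01-fold). Ncstn encodes a subunit of gamma-secretase that is not itself a protease. The count was 3 without TPIN replicate 2, and Furin lost its call without TPIN replicate 1 or TPIN replicate 2. Mmp3 kept its call only where TNE replicate 1 was the array left out, and Ncstn only where TPIN replicate 3 was.

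In the lists around beta-catenin, 0% and 18.2% of the genes passed, against 20.5% of all genes. Of 10 measured genes of the beta-catenin destruction complex none passed in limma, 3 had an unadjusted p under 0.05, and the smallest adjusted p was 0.0753, for Btrc. Without TPIN replicate 3, 2 rose and 3 fell. Of 11 nuclear partners and targets, Tcf7l2 fell 3.10-fold (limma adjusted p = 0.00866) and Lef1 rose 2.31-fold (adjusted p = 0.0387 in limma), both partners of beta-catenin on DNA. Lef1 kept its call only where TNE replicate 3 was the array left out. With TPIN replicate 3 left out 3 genes fell, and with TNE replicate 1 left out 4 did.

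Of 21 measured partners of Fat and Dachsous and genes of the Hippo pathway 5 fell and 1 rose, with a median difference of -1.10. The share that fell was 23.8% against 10.2% of all genes, and the share that rose 4.76% against 10.3%. Tead3, a DNA-binding partner of YAP, fell 3.10-fold, Ccn2 (a YAP target) 6.21-fold, Amotl2 2.56-fold, the kinase Lats2 4.91-fold and Wwtr1 (TAZ), named after its values were seen, 3.55-fold. Wwc1 (KIBRA) rose 2.59-fold. Tead3 and Ccn2 kept their calls without any array. Leaving out TPIN replicate 1 or TNE replicate 2 left 2 genes that fell, leaving out TPIN replicate 2 left 3, and leaving out TPIN replicate 3 gave 8. Wwc1 kept its call only where TNE replicate 3 was the array left out.

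Of 12 planar polarity partners of the Celsr genes, Fzd3, the Frizzled receptor that acts with Celsr proteins in axon tracts, rose 8.65-fold. Its levels were 6.64 ± 0.47 in TPIN and 9.76 ± 1.10 in TNE, with an adjusted p of 0.00875 in limma. Ror2, a Wnt receptor kinase, fell 2.25-fold, a call lost whichever array was left out (adjusted p 0.0549 to 0.153 in limma). Genes that passed made up 16.7% of this list, against 20.5% of all genes. Without TNE replicate 3 the list had 2 genes that rose. Without TPIN replicate 3 it had 3 that fell, and without any other array none.

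Of 16 measured genes tied to protocadherin promoter choice and signalling 6 rose, none fell and 10 did not pass, or 37.5% that rose against 10.3% of all genes. The median difference was 0.97, and 12 of the 16 differences were positive and 4 negative. Those that rose were the cohesin subunits Smc1a (2.97-fold), Rad21 (2.27-fold) and Stag1 (2.41-fold), the insulator protein Ctcf (2.19-fold), Smchd1, which silences clustered protocadherins (1.99-fold), and Cyfip2, a part of the WAVE complex that protocadherin tails recruit (5.46-fold). In limma their adjusted p ran from 0.0106 to 0.0414. Smc1a kept its call without any array, and it was the 1 gene left when TPIN replicate 1 or TPIN replicate 2 was taken out, as when TNE replicate 2 was. With TNE replicate 3 taken out 3 rose. With TPIN replicate 3 left out 2 genes of the list fell. Several of these genes also act in the cell cycle, and their part in the level of the beta protocadherins was not tested.

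**Figure D5:**
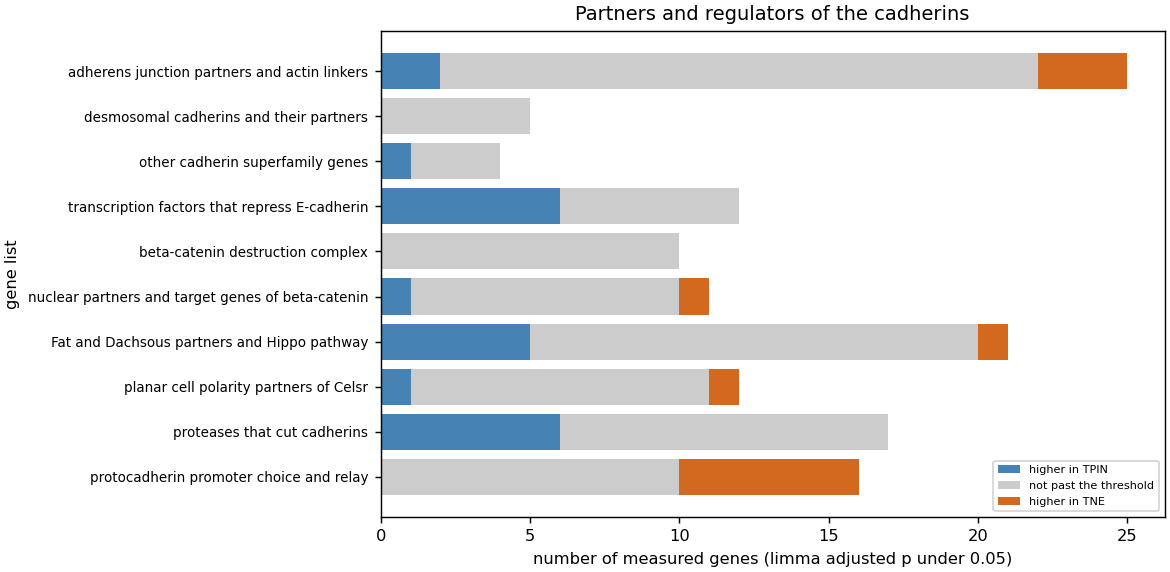
Number of measured genes (x axis) in each of the 10 lists of cadherin partners and regulators (y axis) that were higher in TPIN, higher in TNE or not past the threshold in limma over 3 TPIN and 3 TNE arrays. The factors tied to E-cadherin repression (6 of 12) and the protease list with its subunits (6 of 17) hold only lower genes among those called, and the promoter choice list (6 of 16) only higher ones.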

How the data were processed

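RNA of 6 samples was measured on single-colour oligonucleotide arrays after whole-transcript labelling of cDNA (per the labels' protocols). The deposited values are log2 expression, for which the submitters' processing notes name RMA and no version. RMA narrows differences near background, and without detection calls a low value says nothing of absence. Precision is limited by the number of arrays. The table has 10361 rows, of which 9496 have 1 gene symbol in the array's annotation, 374 several and 491 none. The selection of these rows is not given by the sources used here.

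For 6 genes with several rows the row of highest mean was kept, which left 9490 genes. The test was limma 3.58.1 (R 4.3.3), with a mean per group, empirical Bayes, a two-sided p, Benjamini-Hochberg adjustment over all genes and a threshold of 0.05, a step tested on simulated data. Intervals are moderated 95% intervals. Groups came from the sample titles, and replicate numbers follow series order, which pairs nothing. Members and lists were chosen with earlier results of these data known. Every member could be named, and of each list the 4 genes with the smallest p, with the 3 of highest mean for marker lists; others are marked as named after their values were seen. Among marker lists not reported above, 1 of 3 endothelial markers fell and none rose (0 fell where replicate 2 or 3 of either group was left out), and of 3 leukocyte and 1 glial markers none passed (limma, none with an unadjusted p under 0.05). Promoter sequences are from RefSeq (GRCm38.p6).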

Additional observations from a re-analysis of the deposited data

How the results depend on the processing

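Of the 35 genes, 7 rose and 4 fell. Leaving out 1 array at a time, the number that rose lay between 2 and 8 and the number that fell between 4 and 5. With the dimmest genes left out, which removed 19 of the 35 members and 6 of the 7 that rose, 1 rose and 4 fell, and the median difference of the members went from 0.36 to -0.33. Of all 7117 genes left in that run, 866 rose and 861 fell. With array quality weights 11 rose, and at an adjusted p under 0.01 2 rose and 4 fell. Averaging rows of a gene, centring each array, limma-trend, robust moderation and one test per row left these counts at 7 and 4, with quantile normalization again 9 and 4. The median of the members lay between 0.25 and 0.48 without 1 array. Over the 10 partner lists, 12 genes rose and 22 fell; these counts were 22 and 44 with array quality weights, and without 1 array 2 to 12 and 14 to 34. Over all 9490 genes tested, 1941 passed in the main run (976 rose and 965 fell). With array quality weights 4267 passed (2246 rose and 2021 fell). With 1 array left out, between 832 (without TNE replicate 2) and 2596 (without TPIN replicate 3) passed. The number of calls thus changed over all genes and not only in the members and lists. The cause of these changes was not tested beyond what was left out. Directions that reversed belonged to genes that did not pass. Ctnna1 was at 0.086 with quantile normalization again and 0.34 with array weights, Pcdh9 at -0.49, Ncam1 at -0.35 and Lyz2 at -0.014 with array weights. Without 1 array, Ctnna1 ranged from -0.42 to 0.34, Pcdhb14 from -0.43 to 0.05, Pcdh20 from -0.98 to 0.28, Pcdh1 from -0.55 to 0.29, Pcdh9 from -0.081 to 0.81, Pkp2 from -0.11 to 1.38, Clstn1 from -0.11 to 0.43, Emcn from -1.01 to 0.42, Ncam1 from -0.51 to 0.46, Erbb3 from -0.15 to 0.50 and Lyz2 from -0.28 to 1.42. No paired analysis was possible because the labels give no replicate numbers. No detection calls come with the values, so differences of dim genes rest on signal whose background is unknown.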
